A study of Mus musculus with 2 samples.

Results

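Natural killer (NK) cells that carried Nr4a1 together with genes of NF-kB feedback, and little or no Vegfa, were described in RMA-S tumours of mice lacking Hif1a in NK cells and of wild-type mice. A cell belonged to this state when it held at least 1 unique molecular identifier (UMI, the tag of a captured transcript) of 3 or more of the 4 genes Nr4a1, Nfkbid, Nfkbiz and Csrnp1. It also had under 2 UMIs of Vegfa, under 2 UMIs of Cd3d and Cd3e together, and 0 UMIs of Tmem176a and Tmem176b. Cells in which 500 or more genes were detected and mitochondrial UMIs made up 10% or less were considered, which was 6622 cells, and 1255 of them met the rule. These were 922 of 3067 cells of the KO library and 333 of 3555 cells of the WT library. Since these genes chose the cells, their levels are given as a description.

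The KO library held tumour-infiltrating NK cells of NK-Hif1a-/- mice, labelled as a Hif1a knockout in NK cells, and the WT library those of wild-type mice. All mice had received RMA-S cells, a mouse lymphoma line, under the skin 2 weeks before the tumours were taken. CD3ε-negative, NK1.1-positive cells were sorted and made into 10x Chromium libraries, which read the 3′ end of transcripts. The labels do not give the Cre line, strain, age, number of mice or number of tumours behind either library. With 1 library of each genotype, a difference has no replicate check and holds for these 2 libraries, not for the genotypes.

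Nr4a1 encodes an orphan nuclear receptor and is an immediate early gene, switched on within a short time of receptor signalling in lymphocytes. NF-kB factors are held in the cytoplasm by IkB proteins such as the product of Nfkbia and, once released, switch on genes for adhesion, survival, chemokines and their own inhibitors, among them the nuclear IkB proteins encoded by Nfkbid and Nfkbiz. Hif1a encodes the oxygen-regulated subunit of hypoxia-inducible factor 1, a transcription factor known for driving genes of glycolysis and Vegfa, the gene of a vessel growth factor.

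The promoters of 4 genes are shown because the state is defined or led by them. Nr4a1 and Nfkbid were among the genes of the rule, Nfkbia is the classical NF-kB feedback gene, and Btg2 stood out between the libraries inside the state. Nfkbia and Btg2 were chosen after their values were seen. Each line gives the 250 bases before the RefSeq start of the gene, 5′ to 3′ along the gene's strand, on GRCm38.p6. Capitals mark exact matches on either strand of a motif found by a text search, a match being a description and not a binding site. In Nr4a1 (chr15:101266596-101266845, plus strand) the capitals mark 4 matches of TGACG, the core of the cAMP response element, read as CGTCA on the opposite strand. In Nfkbid (chr7:30422156-30422405, plus strand, 1 of 3 windows listed for the gene) and in Btg2 (chr1:134079156-134079405, minus strand) they mark 1 full element, TGACGTCA. In Nfkbia (chr12:55492648-55492897, minus strand) they mark 1 match of the kB-like motif, GGGAN directly followed by TTTCC.
Nr4a1: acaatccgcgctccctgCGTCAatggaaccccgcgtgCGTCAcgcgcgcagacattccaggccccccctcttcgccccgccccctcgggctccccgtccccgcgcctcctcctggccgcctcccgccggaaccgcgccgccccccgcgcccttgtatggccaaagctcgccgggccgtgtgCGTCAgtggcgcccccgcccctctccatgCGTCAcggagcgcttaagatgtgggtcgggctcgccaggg
Nfkbid: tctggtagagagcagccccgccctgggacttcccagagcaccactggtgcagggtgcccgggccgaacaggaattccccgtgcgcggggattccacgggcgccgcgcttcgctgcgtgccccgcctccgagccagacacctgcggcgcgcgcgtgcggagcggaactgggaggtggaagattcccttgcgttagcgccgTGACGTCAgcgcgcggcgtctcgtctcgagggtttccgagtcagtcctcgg
Nfkbia: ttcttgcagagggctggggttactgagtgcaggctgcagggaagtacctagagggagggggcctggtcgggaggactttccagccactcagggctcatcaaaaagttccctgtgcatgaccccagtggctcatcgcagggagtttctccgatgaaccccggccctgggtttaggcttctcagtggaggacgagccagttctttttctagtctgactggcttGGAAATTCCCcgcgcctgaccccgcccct
Btg2: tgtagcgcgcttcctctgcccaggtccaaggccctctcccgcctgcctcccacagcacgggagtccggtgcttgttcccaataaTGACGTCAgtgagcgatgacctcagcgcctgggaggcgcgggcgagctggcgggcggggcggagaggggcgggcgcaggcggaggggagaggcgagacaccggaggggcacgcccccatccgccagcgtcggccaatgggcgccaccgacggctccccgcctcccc

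Among all 32851 windows in the RefSeq table, 20.8% held TGACG at least 1 time and 0.231% held it 4 times or more, 1.79% held TGACGTCA and 0.411% held the kB-like motif. TGACG lies inside TGACGTCA, so those matches overlap. Of the 51 genes higher in the state in both libraries, described further on, 42 had a window. TGACG was in 22 of these 42 genes (52.4%), against 39.9% of the 1947 genes measured inside the state that had a window. A gene counted if any of its windows held the motif, so these shares are not comparable with those over all windows. The AP-1 motif TGANTCA was in 11.9% of the 42 genes, against 6.47% of the measured genes. The kB-like motif was in 1 of the 42 genes (2.38%), Nfkbia, against 0.462%, and the hypoxia response motif TACGTG in 4.76%, against 5.03%. A looser kB-like motif, GGGNN directly followed by NNNCC, was in 32 of the 42 genes (76.2%), against 71.1%. The full element TGACGTCA was in 4.76%, against 3.75%. No test was made of these shares.

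KO state cells were shallower, at a median of 3949.5 UMIs and 1525.5 detected genes, than WT state cells, at 4977 UMIs and 1738 detected genes. The other Vegfa-low NK cells, which met the same limits but carried under 3 of the 4 genes, comprised 1204 KO and 2624 WT cells, with medians of 3417.5 and 4274 UMIs. To set the libraries at 1 depth, each cell was thinned at random to 2500 UMIs before the rule was applied, leaving out 418 KO and 92 WT cells that were shallower. The rule then chose 715 KO and 143 WT state cells, so WT values there rest on fewer cells and UMIs. The libraries shared 19 barcodes, carried by 6 KO and 3 WT state cells. Proliferating cells, with at least 2 of 10 core mitotic and S phase genes, made up 30 of 922 KO state cells (3.25%) and 53 of 333 WT state cells (15.9%). These WT cells had a median of 10298 UMIs. Depth and proliferating cells thus differed together with the genotype, and their part in the results was not tested. Values at 2500 UMIs per cell, called equal depth, stand beside the main ratios. Counts with such cells left out, or with WT cells weighted to the KO depths, are given further on.

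The state cells carried the markers of NK cells. At 2500 UMIs per cell, Ncr1, an activating receptor of NK cells, was detected in 62.0% of KO and 61.5% of WT state cells, against 28.3% of KO and 24.4% of WT cells with 2 or more Cd3d and Cd3e UMIs. All 8 listed NK markers had UMIs in the state cells, and they summed to 19853 CPM (counts per 1000000 UMIs) in the KO library and 18387 CPM in the WT library. T cell markers, of which 7 of 10 listed were in the data, summed to 24.0 CPM in KO and 37.1 CPM in WT state cells. Cd8a and Cd8b1 were at 0 in both libraries. The rule limited Cd3d and Cd3e, which are on this list, so the low T cell sum was partly set in advance. Macrophage markers summed to 27.2 CPM in KO and 13.9 CPM in WT state cells, and neutrophil markers to 4.36 CPM in KO and 0 CPM in WT state cells. Dendritic cell markers summed to 164 CPM in KO and 239 CPM in WT state cells, with 50.9% of the UMIs in 10 KO cells and 52.5% in 10 WT cells, and Flt3, Xcr1 and Siglech at 0 in both. Haemoglobin and Alas2 UMIs, markers of red blood cells, summed to 282 CPM in KO and 107 CPM in WT state cells. The 5 markers named for the state (Nr4a1, Nfkbid, Gadd45b, Ccl4 and Icam1) summed to 9346 CPM in KO and 4402 CPM in WT state cells, against 2719 CPM in the other KO and 1961 CPM in the other WT Vegfa-low NK cells. Nr4a1 and Nfkbid also chose the cells, so this sum is a description. Gadd45b, Ccl4 and Icam1 had no part in the rule, and their own levels are given further on.

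Hif1a (chromosome 12, 73901375 to 73947530, plus strand) had 220 UMIs or 53.3 CPM in KO state cells and 136 UMIs or 63.0 CPM in WT state cells, a log2 ratio of -0.24 with a 95% counting interval of -0.56 to 0.08. In the other Vegfa-low NK cells the log2 ratio of KO over WT was 0.30. A 3′ tag can lie outside a deleted exon, so these UMIs do not check the deletion.

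The state was the more frequent in the KO library. It made up 30.1% of KO cells (95% exact binomial interval 28.4 to 31.7) and 9.37% of WT cells (8.43 to 10.4), the deeper library thus having the smaller share. At 2500 UMIs per cell it made up 27.0% of 2649 KO cells (25.3 to 28.7) and 4.13% of 3463 WT cells (3.49 to 4.85). All intervals given take in counting error but not the spread between mice or tumours. Haemoglobin-rich barcodes, taken after the data were seen as those with 100 or more haemoglobin and Alas2 UMIs and no limit on genes, are of a type expected to lack these genes. Of them, 1 of 34 in the KO library (2.94%, 0.0744 to 15.3) and 0 of 22 in the WT library (0 to 15.4) had 3 or more of the 4 genes, while 17 and 6 had at least 1. Their medians were 4920 UMIs in KO and 4844 UMIs in WT, of which 309 and 421.5 came from other genes, far fewer than in the state cells, so they set no background at matched depth.

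The Vegfa limit took away more cells in the KO library. A further 573 KO cells and 98 WT cells had 3 or more of the 4 genes with 2 or more Vegfa UMIs, which was 38.3% of the 1495 KO cells and 22.7% of the 431 WT cells with the 4-gene pattern. Of the state cells, 282 KO cells (30.6%) and 58 WT cells (17.4%) held 1 Vegfa UMI.

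The number of rule genes per cell ran over the whole range in both libraries. Among Vegfa-low NK cells, 268, 483, 453, 485 and 437 KO cells carried 0, 1, 2, 3 and 4 of the 4 genes, as did 970, 1091, 563, 265 and 68 WT cells. KO cells were thus spread over all 5 classes, whereas WT cells were most frequent at 0 or 1. All 4 genes were present in 437 of 922 KO state cells (47.4%) and in 68 of 333 WT state cells (20.4%). Where 1 gene was missing, it was Nfkbid in 201 KO and 113 WT cells, Csrnp1 in 198 KO and 106 WT cells, Nfkbiz in 71 KO and 33 WT cells, and Nr4a1 in 15 KO and 13 WT cells. Just outside the rule, cells with 2 of the genes held 538 CPM of Nr4a1 in the KO library, against 311 CPM in WT. Just inside it, cells with 3 held 1254 CPM in the KO library, against 517 CPM in WT.

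The genes of the rule also had higher CPM in the state cells of the KO library, with a smaller difference at equal depth. Nr4a1 (chromosome 15, 101254269 to 101274795, plus strand) had 1505 CPM in KO and 616 CPM in WT state cells, against 334 CPM in the other KO and 141 CPM in the other WT cells. At 2500 UMIs per cell, KO state cells held a median of 4 Nr4a1 UMIs and a highest of 18, and WT state cells a median of 2 and a highest of 16, so the cells of the libraries overlapped. Nfkbid (chromosome 7, 30421732 to 30428746, plus strand), whose product binds NF-kB in the nucleus, had 387 CPM in KO and 167 CPM in WT state cells. Nfkbiz (chromosome 16, 55811375 to 55838899, minus strand), which encodes another nuclear IkB protein, had 620 CPM in KO and 272 CPM in WT state cells. Csrnp1 (chromosome 9, 119971163 to 119984658, minus strand), the gene of a nuclear protein, had 417 CPM in KO and 170 CPM in WT state cells. At full depth the log2 ratios of KO over WT were 1.29 for Nr4a1, 1.21 for Nfkbid, 1.18 for Nfkbiz and 1.29 for Csrnp1. At equal depth they were 0.77, 0.50, 0.53 and 0.52. The sum of the 4 genes per thinned cell had a median of 9 UMIs in KO and 5 UMIs in WT state cells.

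**Figure D1:**
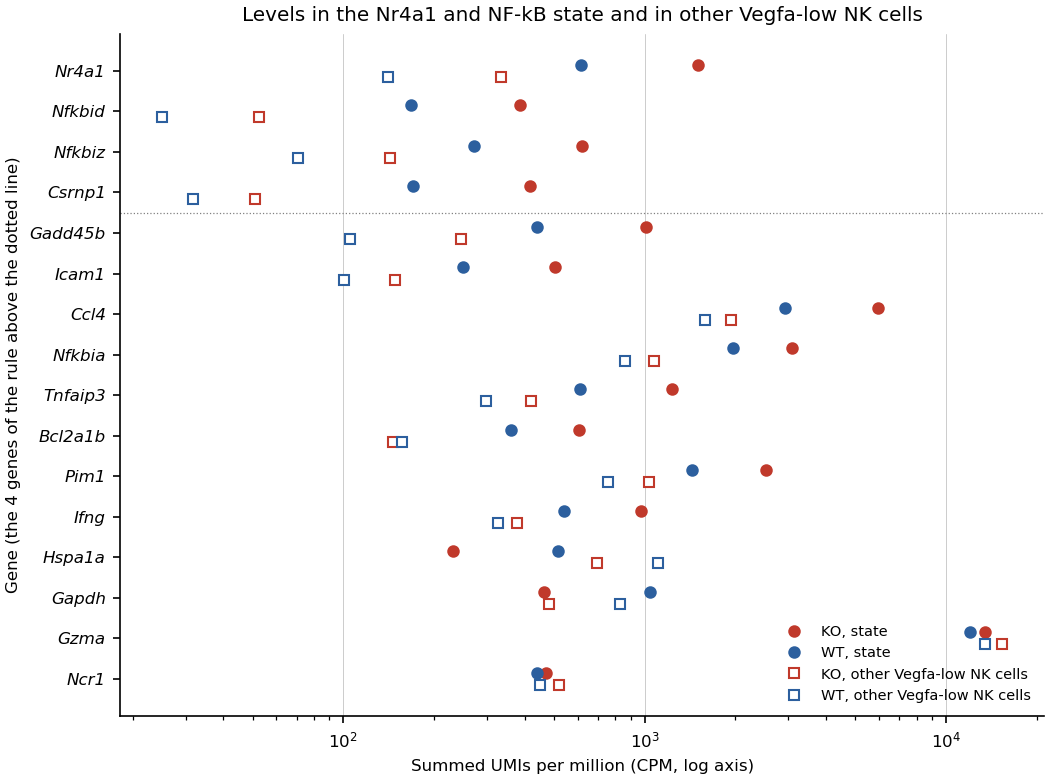
Levels of 16 genes in CPM (log axis), with filled circles for state cells and open squares for other Vegfa-low NK cells, KO in red and WT in blue. The 4 genes of the rule stand above the dotted line. Below it, Gadd45b, Icam1, Ccl4, Nfkbia and Tnfaip3 are higher in the state than outside it in both libraries, Hspa1a is lower, and Gzma and Ncr1 lie close together in all 4 sets of cells.

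Set against the other Vegfa-low NK cells, the state had higher levels of NF-kB feedback, survival and chemokine genes in both libraries. Genes averaging at least 50 CPM over the sets compared were taken, and a difference of 1.5-fold or more was counted. In the KO library 136 of 2629 genes (5.17%) were at least 1.5-fold higher in the state and 23 (0.875%) lower. In the WT library 74 of 2523 genes (2.93%) were higher and 18 (0.713%) lower. At equal depth 146 of 2635 genes (5.54%) were higher and 29 (1.1%) lower in the KO library, and 152 of 2539 (5.99%) higher and 74 (2.91%) lower in the WT library, so the smaller WT counts were not seen there. Of 2392 genes measured in both, 51 were higher in both, out of 114 in KO and 65 in WT, and 7 were lower in both, out of 21 in KO and 15 in WT. The genes of the rule are among these counts, and all genes were measured in the cells the rule chose, so the counts describe the state and test nothing.

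Among the named markers outside the rule, Gadd45b was several times higher in the state. Gadd45b (chromosome 10, 80930073 to 80932204, plus strand), a stress gene that is induced by NF-kB, had 1011 CPM in the state and 245 CPM in the other cells of the KO library, a log2 ratio of 2.04. In the WT library it had 438 CPM in the state and 105 CPM in the other cells, a log2 ratio of 2.05. At equal depth these ratios were 1.75 in KO and 2.23 in WT cells. Icam1 (chromosome 9, 21015985 to 21028817, plus strand), the gene of an adhesion molecule bound by LFA-1, was higher in the state by 1.75 on the log2 scale in KO and 1.30 in WT cells, and by 1.80 in KO and 2.02 in WT cells at equal depth.

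The chemokine markers were unevenly spread over the state cells. Ccl4 (chromosome 11, 83662584 to 83664683, plus strand), the gene of an inflammatory chemokine, had 5939 CPM in the state and 1939 CPM in the other KO cells, and 2932 CPM in the state and 1590 CPM in the other WT cells. The log2 ratio of state over other cells was 1.61 in KO and 0.88 in WT cells, and at equal depth 1.53 in KO and 1.48 in WT cells. Ccl3, a related chemokine gene that lies beside Ccl4, had log2 ratios of 1.13 in KO and 0.64 in WT cells, and 1.23 and 1.05 at equal depth. Per thinned cell, Ccl3 and Ccl4 together had a median of 13 UMIs in KO and 9 UMIs in WT state cells, and reached 282 UMIs in KO and 265 UMIs in WT cells. Other Vegfa-low NK cells had a median of 3 UMIs in either library and reached 353 UMIs in KO and 257 UMIs in WT cells, so strong chemokine expression also occurred outside the state. Ifng, the gene of interferon gamma, was higher in the state by 1.36 in KO and 0.73 in WT cells on the log2 scale, and by 1.35 in either library at equal depth. The gap between the libraries in Ccl4 and Ifng was thus nearly gone at equal depth.

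NF-kB targets for survival stood high in the state in both libraries. Of 14 listed NF-kB surface and survival targets, 11 were measured in the KO library, of which 7 were at least 1.5-fold higher, beside 5.17% of all genes, and 0 lower, and 9 in the WT library, of which 5 were higher, beside 2.93% of all genes, and 0 lower. Their median log2 ratio was 1.11 in KO and 0.60 in WT cells, beside -0.06 and 0.01 over all genes measured. At equal depth 7 of 12 were higher in KO and 6 of 8 in WT cells, with medians of 0.92 and 0.95. Bcl2a1b, a member of the anti-apoptotic Bcl2a1 copies, was higher by 2.04 in KO and 1.19 in WT cells, and by 1.88 and 1.77 at equal depth. Birc3, an inhibitor of apoptosis, was higher by 1.11 in KO and 0.60 in WT cells, and by 1.11 and 0.97 at equal depth. The Bcl2a1 copies resemble each other in sequence, so their UMIs may have been split between them.

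About as many of the measured inhibitors of NF-kB signalling were higher in the state as were not. Of 13 listed genes, with the rule genes held out, 6 were measured in the KO library and 3 were at least 1.5-fold higher, as were 3 of 5 in the WT library, beside 5.17% and 2.93% of all genes, and 0 were lower in either. Median log2 ratios were 0.94 in KO and 1.03 in WT cells, and 0.51 and 0.93 at equal depth, where 3 of 7 and 3 of 6 were higher. Nfkbia, which encodes the classical IkB alpha, had 3078 CPM in the state and 1077 CPM in the other KO cells, and 1958 CPM in the state and 862 CPM in the other WT cells. Tnfaip3, the gene of the deubiquitinase A20, was higher in the state by 1.56 in KO and 1.03 in WT cells on the log2 scale, and by 1.42 and 1.41 at equal depth. Zc3h12a, the gene of the RNA-degrading Regnase-1, was higher by 1.66 in KO and 1.03 in WT cells, and by 1.45 and 1.70 at equal depth. Otulin, the gene of a deubiquitinase of linear chains, was at -0.03 in KO and 0.12 in WT cells, and N4bp1 at 0.14 and -0.21.

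Of the NF-kB subunits, Rel was higher by 1.27 in KO and 1.26 in WT cells, and by 1.23 and 1.59 at equal depth. Nfkb1 was higher by 0.97 in KO and 0.65 in WT cells, and by 0.96 and 0.94 at equal depth. Rela was at 0.42 in KO and 0.08 in WT cells.

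The immediate early genes differed among themselves. Of the AP-1 family, Fosl2 was higher in the state by 1.27 in KO and 0.86 in WT cells, and by 1.06 and 1.29 at equal depth. Junb was higher by 1.38 in KO and 0.81 in WT cells, and by 1.21 and 1.20 at equal depth. Fos was at -0.36 in KO and -0.75 in WT cells, and Jun at -0.46 and -0.78, so both lay below 0 in both libraries, as they did at equal depth. Nr4a2, a paralog of Nr4a1, was at 1.46 in KO and 0.95 in WT cells, and at 1.12 and 1.19 at equal depth. Nr4a3 was at 1.34 in KO and 1.18 in WT cells. Hspa1a and Hspa1b, the genes of inducible heat shock protein 70, were lower in the state by 1.5-fold or more in both libraries. Hspa1a had 232 CPM in the state and 697 CPM in the other KO cells, and 514 CPM in the state and 1105 CPM in the other WT cells, with log2 ratios at equal depth of -1.85 in KO and -0.93 in WT cells.

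Feedback genes of the Gadd45, Dusp, Btg and Zfp36 families had larger ratios of state over other cells in the KO library. Of 21 listed genes, 16 were measured in the KO library, where 15 were at least 1.5-fold higher in the state and 0 lower. This stood beside 5.17% and 0.875% of all genes, and the median log2 ratio was 0.89. For WT 14 were measured, 2 were higher and 1 lower, beside 2.93% and 0.713% of all genes, with a median of 0.36. With cells thinned to 2500 UMIs, 14 of 16 were higher in KO cells, beside 5.54% of all genes, and 9 of 14 in WT cells, beside 5.99%, with medians of 0.92 and 0.69. Lower were 0 of these genes in either library, beside 1.1% of all genes in KO and 2.91% in WT cells. The WT count and median were thus larger after thinning, which also changed the cells that the rule chose. The difference between the libraries was not tested.

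NK receptor genes were close to level across the state border, whereas some granzyme genes were not. None of 17 measured activating and inhibitory NK receptor genes passed 1.5-fold in either library, with median log2 ratios of -0.10 in KO and -0.13 in WT cells. Gzma, the most abundant granzyme gene, had 13503 CPM in the state and 15308 CPM in the other KO cells, and 12033 CPM in the state and 13481 CPM in the other WT cells. Of the cytotoxic effector list, 3 of 13 measured genes were at least 1.5-fold higher and 1 lower in the KO library, beside 5.17% and 0.875% of all genes. In the WT library 0 of 14 passed, beside 2.93% higher and 0.713% lower. At equal depth 3 were higher and 1 lower of 13 in KO cells, beside 5.54% and 1.1% of all genes. In WT cells 2 were higher and 1 lower of 13, beside 5.99% and 2.91%. Serpinb9, the gene of a granzyme B inhibitor, was higher in the state by 1.05 in KO and 0.57 in WT cells, and by 1.08 and 0.76 at equal depth. Gzmd was at -4.10 in KO and -1.08 in WT cells, Gzmf at -2.69 and -2.06, and Gzmg at -4.55 and -2.31, all lower in the state at both depths. The KO signs of Gzmd and Gzmf turned with the cells used. They were at 0.59 and 0.086 without cells carrying 3 or more S and G2M (cell division) genes. Without the 3% of cells with most UMIs they were at 0.61 and 0.11. Gzmc was at -1.87 in KO and 0.37 in WT cells, and at -1.35 and -1.53 at equal depth. These granzymes are alike in sequence, so their UMIs are uncertain. The 10 housekeeping genes had medians of -0.02 in KO and -0.01 in WT cells, and none passed 1.5-fold.

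Transcripts of dividing cells marked the WT state more than the KO state at full depth. Of 7 measured S and G2M genes, 1 was at least 1.5-fold higher in the KO state and 0 lower, beside 5.17% and 0.875% of all genes, with a median log2 ratio of 0.08. Of 10 measured in the WT library 9 were higher and 0 lower, beside 2.93% and 0.713% of all genes, with a median of 0.81. After thinning, 1 of 7 was higher in KO and 1 of 7 in WT cells, with medians of 0.04 and 0.23. Proliferating cells made up 3.25% of the state and 2.74% of the other cells in the KO library, and 15.9% of the state and 8.50% of the other cells in the WT library.

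Cells with the same 4-gene pattern and 2 or more Vegfa UMIs share the rule genes with the state by construction and were set against it at full depth alone. In the KO library 7 of 2588 genes (0.27%) were at least 1.5-fold higher in the state than in these 573 cells and 15 (0.58%) lower. In the WT library 45 of 2523 genes (1.78%) were higher than in 98 such cells and 37 (1.47%) lower. Hspa1a was higher in the Vegfa-low state than in its Vegfa counterpart by 1.41 in KO and 1.02 in WT cells on the log2 scale, while the state was below the other Vegfa-low NK cells for this gene. Dhrs3, the gene of a retinal reductase, was lower in the Vegfa-low state, with log2 ratios of -0.60 in KO and -0.88 in WT cells, and Ier5l was at -0.75 in KO and -1.32 in WT cells.

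Inside the state, most measured genes of the Gadd45, Dusp, Btg and Zfp36 list were higher in KO than in WT cells at full depth, and most glycolysis and S and G2M genes were lower. Fewer of each list passed 1.5-fold at equal depth. Of 2533 genes averaging 50 CPM or more over the KO and WT sums, 178 (7.03%) were at least 1.5-fold higher in the KO state cells and 92 (3.63%) at least 1.5-fold lower. The median log2 ratio of KO over WT was -0.02. At 2500 UMIs per cell, 167 of 2575 genes (6.49%) were higher and 97 (3.77%) lower. Among the 178 genes 87 still passed 1.5-fold there, as did 38 among the 92. Among the other Vegfa-low NK cells 78 of the 2533 genes (3.08%) were higher in KO and 39 (1.54%) lower. Of the 178 and the 78 higher genes, 63 were in both lists, and of the 92 and the 39 lower genes, 29 were in both. Direction was shared more widely. Among the other cells, 172 of the 178 higher genes had a ratio above 0 and 90 of the 92 lower genes a ratio below 0. Both comparisons set the same 2 libraries against each other.

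**Figure D2:**
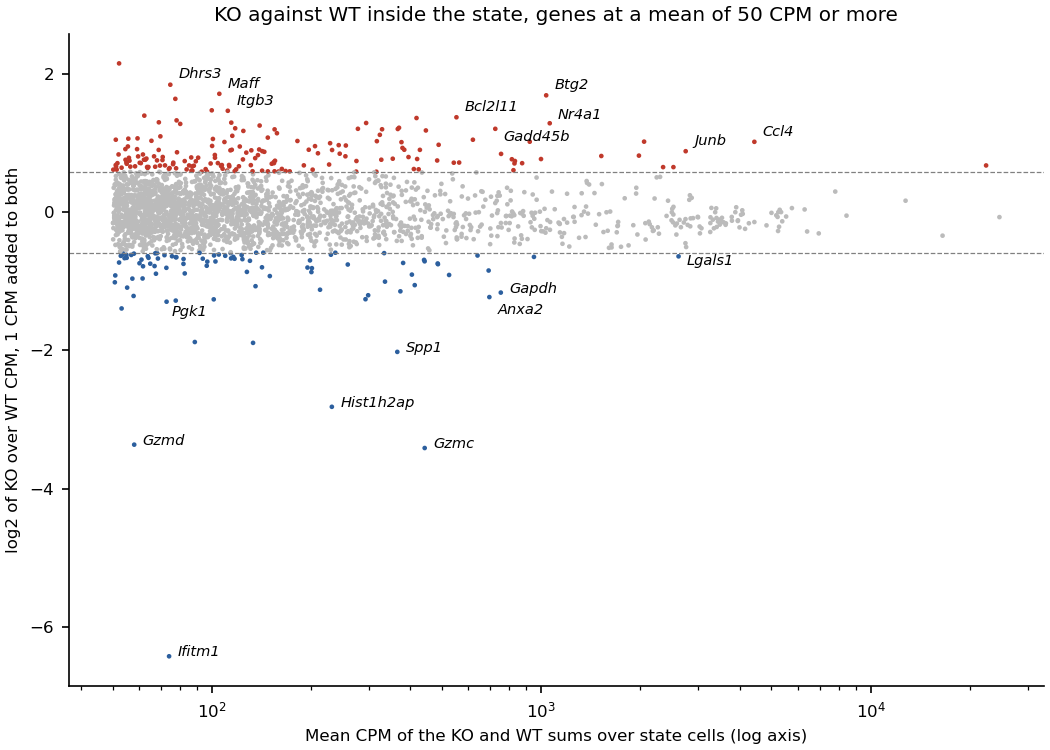
Each point is a gene measured inside the state, with the mean CPM of the KO and WT sums (log axis) across and the log2 ratio of KO over WT up. Red points are 178 genes at least 1.5-fold higher in KO, blue points 92 genes at least 1.5-fold lower, and dashed lines mark 1.5-fold. Abundant genes on the high side include Ccl4, Junb, Nr4a1 and Btg2, and the lowest point is Ifitm1.

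Btg2 differed between the libraries inside the state at either depth. Btg2 (chromosome 1, 134075170 to 134079120, minus strand), an antiproliferative gene that is induced by p53 and by immediate early signals, had 1580 CPM in KO and 489 CPM in WT state cells. Its log2 ratio of KO over WT was 1.69 (95% counting interval 1.60 to 1.79), and with cells thinned to 2500 UMIs it had 1842 CPM in KO and 652 CPM in WT state cells. Per thinned cell the median was 4 UMIs in KO and 1 UMI in WT state cells, and 90% of the WT cells had 4 UMIs or fewer. In the other Vegfa-low NK cells it had 812 CPM in KO and 471 CPM in WT, a log2 ratio of 0.78. In cells with the 4-gene pattern and 2 or more Vegfa UMIs it had 1684 CPM in KO and 452 CPM in WT. The log2 ratio there was 1.90 at full depth, so the difference was not particular to the Vegfa-low state. The log2 ratio of Btg2 in the state over the other cells was 0.96 in KO cells, and 0.95 at equal depth, whereas in WT cells it was 0.05, and 0.33 at equal depth.

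The rest of its list went the same way. Of the 16 measured Gadd45, Dusp, Btg and Zfp36 feedback genes, 13 were at least 1.5-fold higher in KO state cells and 0 lower, beside 7.03% and 3.63% of all genes, with a median log2 ratio of 0.79. At equal depth 7 of 16 were higher and 0 lower, beside 6.49% and 3.77%, with a median of 0.52. Gadd45b had a log2 ratio of 1.21, and at equal depth 1221 CPM in KO and 610 CPM in WT state cells. Zfp36, which encodes the mRNA-destabilising protein tristetraprolin, had 458 CPM in KO and 199 CPM in WT state cells, a log2 ratio of 1.20, and 1.05 at equal depth. Ier5l was at 1.40 and 1.34.

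The same list was measured outside the state. In the other Vegfa-low NK cells 3 of the 16 were at least 1.5-fold higher in KO and 1 lower, beside 3.08% and 1.54% of all genes, with a median of 0.30. The lower gene was Gadd45g, named after its values were seen, which had a log2 ratio of KO over WT of 0.91 inside the state and -0.61 outside it. Whether the difference between these 2 comparisons is larger than that between mice was not tested.

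Other inducible regulators were higher in KO state cells and kept most of the difference at equal depth. Maff, a small Maf transcription factor gene, had 162 CPM in KO and 48.6 CPM in WT state cells, a log2 ratio of 1.71 (1.43 to 2.04), and 1.58 at equal depth. Tgif1, the gene of a TGF-beta corepressor, was at 1.12, and 1.04 at equal depth. Pim3, a kinase gene, was at 1.30 and 1.19. Cxcr4, the gene of the CXCL12 receptor, had 158 CPM in KO and 72.7 CPM in WT state cells, with log2 ratios of 1.11 and 1.03. Crem, a cAMP-responsive factor gene, was at 1.05 and 0.89. Bcl2l11, which encodes the pro-apoptotic protein Bim, had 797 CPM in KO and 307 CPM in WT state cells. Its log2 ratio was 1.37, and 0.95 at equal depth. All of these genes were also higher in KO among the other Vegfa-low NK cells, with smaller ratios than inside the state. Log2 ratios there were 0.96 for Bcl2l11, 0.74 for Crem, 0.68 for Tgif1 and 0.61 for Cxcr4, and larger for Maff and Pim3. In cells with the 4-gene pattern and 2 or more Vegfa UMIs, ratios were 1.58 for Maff and 1.30 for Cxcr4. Bcl2l11 was at 1.23 there, and Crem, Pim3 and Tgif1 at 1.27. The differences were thus not particular to the Vegfa-low state.

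NF-kB feedback genes were also higher in KO state cells, but less so at equal depth. Of the 6 measured NF-kB inhibitor and feedback genes outside the rule, 5 were at least 1.5-fold higher and 0 lower, beside 7.03% and 3.63% of all genes, with a median log2 ratio of 0.85. Thinned to 2500 UMIs, 1 of 8 was higher, beside 6.49%, with a median of 0.33. Nfkbia had a log2 ratio of 0.65, and 0.15 at equal depth. Tnfaip3 was at 1.02 and 0.64. Of 10 measured NF-kB surface and survival targets, 4 were at least 1.5-fold higher and 0 lower, beside the same 7.03% and 3.63%, with a median of 0.48. At equal depth 3 of 11 were higher and 0 lower, beside 6.49% and 3.77%, with a median of 0.39. Icam1 had 503 CPM in KO and 249 CPM in WT state cells, a log2 ratio of 1.01, and 0.46 at equal depth. Bcl2a1b was at 0.75 and 0.29.

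**Figure D3:**
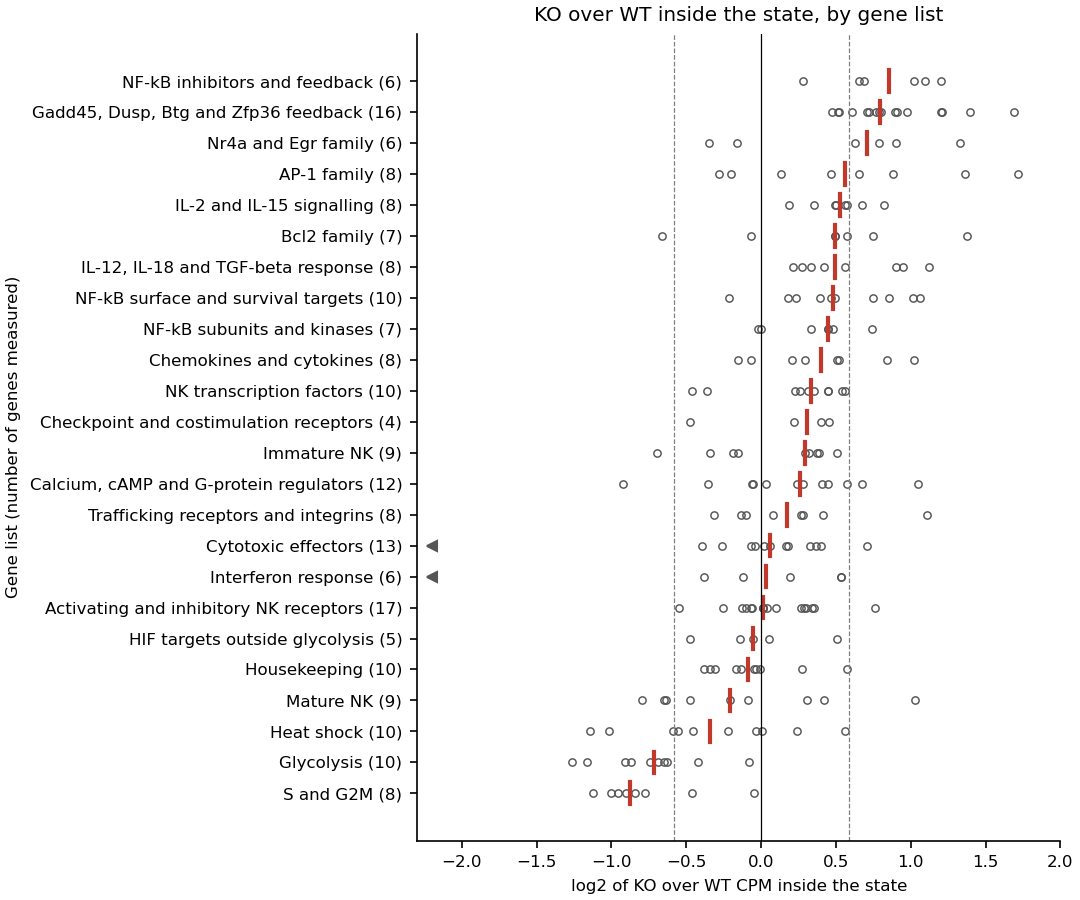
Log2 ratio of KO over WT CPM inside the state for the measured genes of each list (circles), with the list median as a red bar and the number of genes measured in parentheses. Dashed lines mark 1.5-fold, and arrowheads at the left stand for Gzmc and Ifitm1, which lie beyond the axis. List medians run from 0.85 for NF-kB inhibitors and feedback to -0.87 for S and G2M genes.

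Ccl4, Ccl3 and Ifng differed less between KO and WT state cells at equal depth. Ccl4 was higher in KO state cells with a log2 ratio of 1.02 (0.98 to 1.06), and 0.50 at 2500 UMIs per cell, and Ccl3 was at 0.50 and 0.20. Ccl5, another chemokine gene, had 24010 CPM in KO and 25222 CPM in WT state cells, with log2 ratios of -0.07 and, at equal depth, -0.30. Ifng had 969 CPM in KO and 540 CPM in WT state cells, a log2 ratio of 0.84, and 0.44 at equal depth. Of 8 measured chemokine and cytokine genes, 2 were at least 1.5-fold higher and 0 lower at full depth, beside 7.03% and 3.63% of all genes. At equal depth 0 were higher and 1 lower, beside 6.49% and 3.77%, and the median was 0.40 at full and 0.10 at equal depth.

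Fos and Klf2 did not share the direction of Nr4a1. Fos had 381 CPM in KO and 463 CPM in WT state cells, a log2 ratio of -0.28, and -0.55 at equal depth. Klf2, a factor of lymphocyte quiescence and trafficking, was at -0.16, and -0.71 at equal depth. Egr1, whose gene is a classical target of MAP kinase signalling, was at 1.33, and 0.66 at equal depth. Of the 6 measured genes of the Nr4a and Egr list, which held out Nr4a1, 4 were at least 1.5-fold higher and 0 lower, beside 7.03% and 3.63% of all genes. At equal depth 2 were higher and 2 lower, beside 6.49% and 3.77%.

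**Figure D4:**
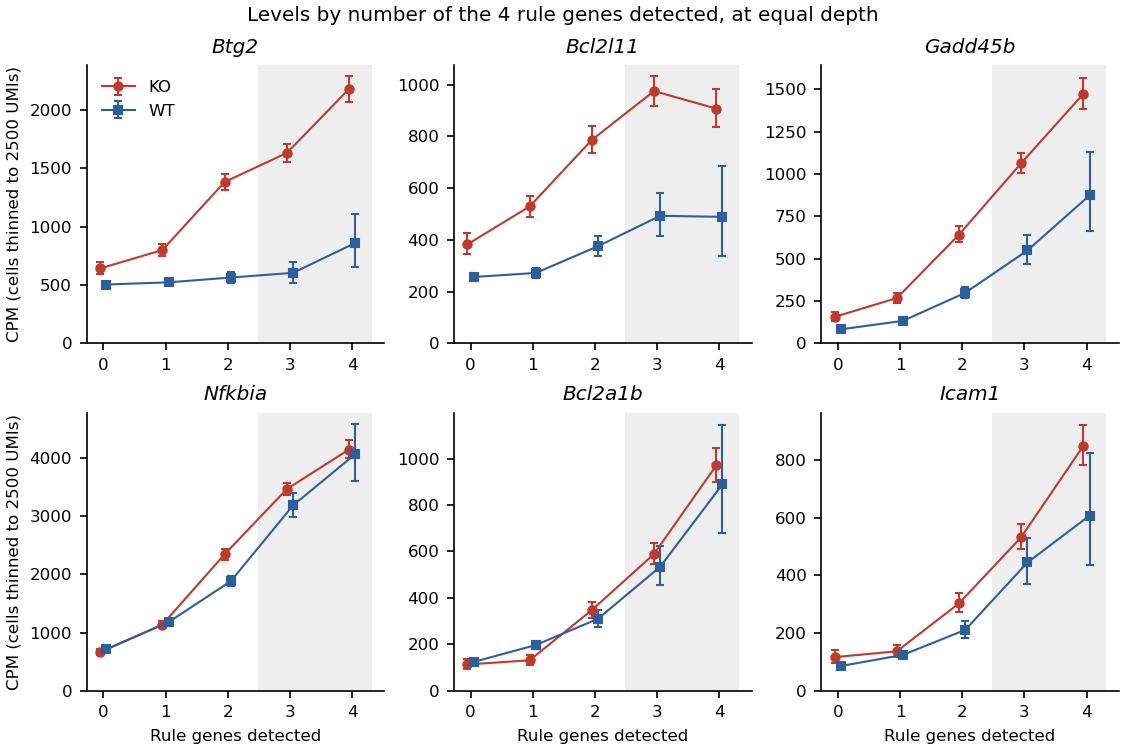
CPM of 6 genes in Vegfa-low NK cells by the number of the 4 rule genes detected, all cells thinned to 2500 UMIs, KO in red circles and WT in blue squares, with 95% Poisson counting intervals and the state shaded. Btg2, Bcl2l11 and Gadd45b lie higher in KO than in WT cells in all 5 classes, whereas Nfkbia and Bcl2a1b lie near each other in most classes. The WT classes with 3 and 4 genes hold 116 and 27 cells, against 440 and 275 KO cells.

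Classed by the number of rule genes at equal depth, genes differed in how they parted the libraries. Over cells with 0, 1, 2, 3 and 4 of the genes, Btg2 had 641, 799, 1382, 1631 and 2179 CPM in KO cells, and 503, 522, 563, 603 and 859 CPM in WT cells. It climbed with the number of rule genes in KO cells and stayed nearly level up to 3 genes in WT cells. Gadd45b had 156, 267, 642, 1064 and 1473 CPM in KO cells, and 82.2, 132, 298, 548 and 874 CPM in WT cells, higher in KO at each step. Bcl2l11 had 383, 529, 786, 975 and 908 CPM in KO cells, and 256, 272, 376, 493 and 489 CPM in WT cells.

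The NF-kB feedback gene Nfkbia behaved otherwise. It had 666, 1135, 2341, 3459 and 4138 CPM in KO cells, and 712, 1179, 1881, 3179 and 4059 CPM in WT cells over the same classes, so cells with as many rule genes had nearly as much of it in either library. Bcl2a1b had 970 CPM in KO and 889 CPM in WT cells with all 4 genes, but 131 CPM in KO and 197 CPM in WT cells with 1 gene. Hspa1a ran the other way, with 752, 587, 528, 236 and 64.0 CPM in KO cells, and 1232, 1107, 792, 662 and 296 CPM in WT cells, lower with more rule genes in both libraries. The classes were cut from measured genes and the WT class with 4 genes had 27 cells, so these orders are descriptions.

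Glycolysis genes were lower in KO state cells. Of 18 listed genes 10 were measured, of which 8 were at least 1.5-fold lower and 0 higher, beside 3.63% and 7.03% of all genes, with a median log2 ratio of -0.72. At equal depth 3 of 10 were lower and 0 higher, beside 3.77% and 6.49%, with a median of -0.48. Gapdh, the gene of a mid-pathway dehydrogenase, had 465 CPM in KO and 1042 CPM in WT state cells, a log2 ratio of -1.16 (-1.25 to -1.08), and -0.62 at equal depth. Pgk1, the gene of the next enzyme, was at -1.26 and -0.69. Ldha, the gene of a lactate dehydrogenase subunit, was at -0.63 at full depth and 0.00 at equal depth.

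The glycolytic difference was seen outside the state as well. In the other Vegfa-low NK cells 4 of the 10 genes were at least 1.5-fold lower in KO and 0 higher, beside 1.54% and 3.08% of all genes, with a median of -0.52. Gapdh was at -0.78 there. Few Hif1-regulated genes outside glycolysis were measured, and they did not share the direction of glycolysis at equal depth. Of 15 listed, 5 were measured inside the state, and 0 passed 1.5-fold, with a median of -0.06. At equal depth 2 of 4 were at least 1.5-fold higher in KO and 0 lower, beside 6.49% and 3.77% of all genes, with a median of 0.41. Hilpda, a lipid droplet gene known as a hypoxia target, had 171 CPM in KO and 120 CPM in WT state cells, a log2 ratio of 0.50. At equal depth its ratio was 1.26, on 314 KO and 26 WT UMIs. Ddit4, the gene of a hypoxia-induced inhibitor of mTOR signalling, was at -0.06, and 0.81 at equal depth, on 133 KO and 15 WT UMIs. With so few WT UMIs these equal-depth ratios are uncertain.

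S and G2M genes were lower in KO state cells at full depth. Of 8 measured genes, 6 were at least 1.5-fold lower and 0 higher, beside 3.63% and 7.03% of all genes, with a median log2 ratio of -0.87. At equal depth 0 of 7 passed 1.5-fold, with a median of -0.37. Stmn1, a microtubule regulator gene that is high in dividing cells, was at -1.12, and -0.37 at equal depth. With proliferating cells left out, a choice made after the data were seen, 35 genes in place of 92 were at least 1.5-fold lower in KO state cells and 143 in place of 178 higher.

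Anxa2 and Mif differed at both depths. Anxa2 (chromosome 9, 69453620 to 69491795, plus strand), a membrane-binding annexin gene, had 416 CPM in KO and 975 CPM in WT state cells, with log2 ratios of KO over WT of -1.23 (-1.32 to -1.14) and, at equal depth, -1.16. In the other Vegfa-low NK cells it was at -1.17. Mif, a cytokine gene, was at -1.26, and -0.91 at equal depth. Hspa1a had 232 CPM in KO and 514 CPM in WT state cells, with log2 ratios of -1.14 and -1.80.

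The lowest ratios rested on few cells. Gzmc (chromosome 14, 56231441 to 56234656, minus strand), a granzyme gene, had 310 UMIs or 75.2 CPM in KO state cells and 1747 UMIs or 809 CPM in WT state cells, a log2 ratio of -3.41. The 10 richest cells held 88.4% of the WT UMIs and 29.7% of the KO UMIs, and at equal depth the ratio was -0.74. Ifitm1, an interferon-induced membrane protein gene, had 3 UMIs in KO and 318 UMIs in WT state cells, a log2 ratio of -6.42 (-9.95 to -6.10), with 95.3% of the WT UMIs in 10 cells. Spp1, the osteopontin gene, had 144 CPM in KO and 587 CPM in WT state cells, with 85.3% of the WT UMIs in 10 cells, and log2 ratios of -2.02 and -0.95. The counting intervals take UMIs as independent and are too narrow for such genes. Gzmc to Gzmg are alike in sequence, so their UMIs are uncertain.

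**Figure D5:**
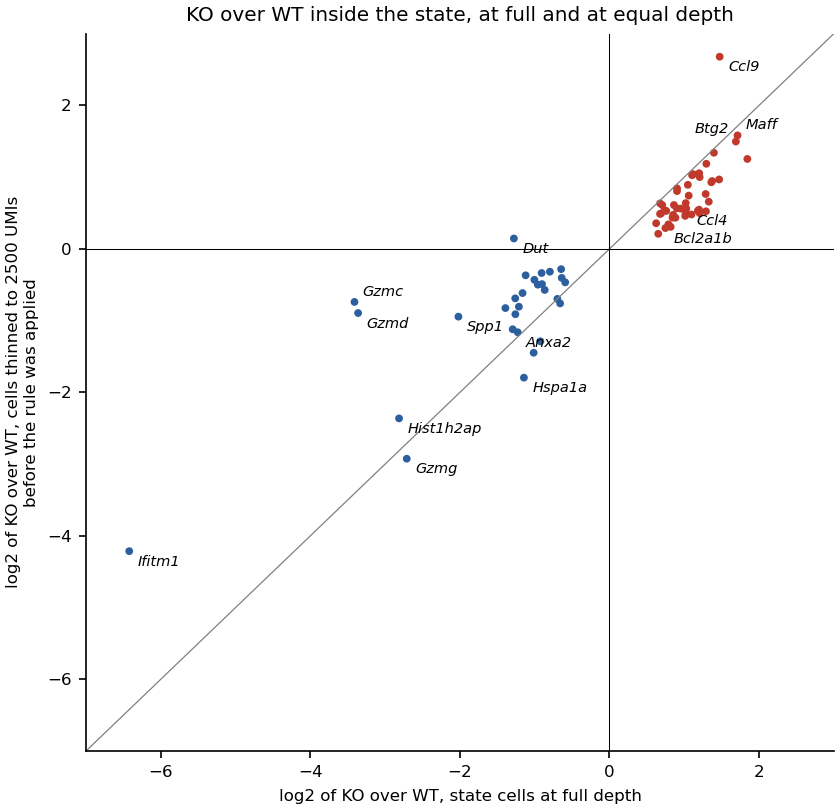
Log2 ratio of KO over WT inside the state for the 74 named genes past 1.5-fold, at full depth across and with cells thinned to 2500 UMIs up, with the diagonal marking equal values. Red points are 45 genes higher in KO and blue points 29 genes lower. Most red points lie between 0 and the diagonal, Btg2 and Maff lie near it, and Gzmc, Spp1 and Dut lie far above it.

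Of 17 measured NK receptor genes, 1 was at least 1.5-fold higher in KO state cells and 0 lower, beside 7.03% and 3.63% of all genes, a share near that of all genes, with a median log2 ratio of 0.02. That gene, Klrb1b, an inhibitory receptor gene, was at 0.76, and 0.53 at equal depth. Gzma was at 0.17 and Gzmb at 0.06, and the sum of both had a median of 36 UMIs per thinned state cell in KO as in WT. Of 9 measured genes of the mature NK list, 1 was at least 1.5-fold higher and 3 lower, beside 7.03% and 3.63% of all genes. At equal depth 0 of 10 passed. Cma1, a chymase gene, was the higher one at 1.03, and 0.56 at equal depth. S100a4, S100a6 and Lgals1 were lower at -0.80, -0.65 and -0.64, and lay at -0.32, -0.28 and -0.40 at equal depth. The 10 housekeeping genes had a median of -0.09, and 0 passed 1.5-fold.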

How the data were processed

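Tumour-infiltrating NK cells of 1 KO and 1 WT library were profiled. Raw UMI counts for 27998 genes were deposited as whole numbers per barcode, with 3110 barcodes and 13407906 UMIs in the KO and 3574 barcodes and 19553440 UMIs in the WT table. Per the submitters' processing notes, Cell Ranger 2.0.2, Seurat and mm10 were used, with no role stated. Which annotation was counted, and whether doublets had been removed, is not given in the sources used here. Doublets were not called. In their place, a variant dropped the 3% of cells with most UMIs.

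From these counts, UMIs were summed over the cells of a set per library and scaled to CPM with Python 3.11.15, numpy 2.4.6 and scipy 1.17.1. Ratios are log2 with 1 CPM added to both sides, for genes at a mean of 50 CPM or more. No test was made, as each genotype had 1 library. The 95% intervals (exact conditional binomial for ratios, computed without the added CPM, Clopper-Pearson for shares and exact Poisson for levels) cover counting error only. Ratios and their intervals were checked on summed counts simulated as independent draws, which is what the intervals assume. The check thus says nothing of genes whose UMIs gather in few cells.

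The cells, gene lists and markers were chosen with earlier results of these data known, so no list is independent evidence. Rule genes were left out of the lists. A fixed rule named the genes. It took the markers, the rule genes and Hif1a, the 12 highest and 12 lowest ratios of KO over WT that went the same way in cells with 3 and with 4 rule genes, the 12 highest and 8 lowest in the state, and up to 4 genes of each list. This gave 122 genes, of which 121 had 1 record in GENCODE M21 on GRCm38, the source of the gene positions. Genes named outside it belong to a list. Promoters are from RefSeq on GRCm38.p6, where 5 of 7 genes looked up were matched.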

Additional observations from a re-analysis of the deposited data

Results flagged for a closer look

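Among named genes at least 1.5-fold apart in at least 1 library, with counting intervals off 0 in both, the ratio of state over other Vegfa-low NK cells had opposite signs in the 2 libraries for 4. Genes with smaller ratios of opposite sign are not among these. In each case the difference between the libraries was not tested. Ccl9, a chemokine gene, had a log2 ratio of 1.31 in the KO library and -0.28 in the WT library, and 1.25 and -1.42 at 2500 UMIs per cell. Gzmc was at -1.87 in KO and 0.37 in WT cells, and at -1.35 and -1.53 thinned. Ifitm1 was at -2.73 in KO and 1.06 in WT cells, on 3 UMIs in KO state cells, and at -1.01 and -0.33 thinned. Spp1 was at -0.74 in KO and 0.66 in WT cells, and at -1.41 and -1.03 thinned. The opposite signs of Gzmc, Ifitm1 and Spp1 were thus not seen at equal depth. Within WT state cells the 10 richest cells held 75.2% of the Ccl9 UMIs, 88.4% of the Gzmc UMIs, 95.3% of the Ifitm1 UMIs and 85.3% of the Spp1 UMIs.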

How the results depend on the processing

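No paired analysis was possible because each genotype had 1 library and the replicate numbers only name them. The share of cells in the state was 44.8% in KO and 25.2% in WT with 2 of the 4 genes required, 14.2% and 1.91% with all 4, 48.7% and 12.1% with no upper limit on Vegfa, and 27.0% and 4.13% at 2500 UMIs per cell.

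Of genes past 1.5-fold between KO and WT state cells (270, with 178 higher and 92 lower), there were 580 (366 higher, 214 lower) at a minimum of 20 CPM, 159 (110 higher, 49 lower) at 100 CPM and 2689 (1517 higher, 1172 lower) with no minimum beyond 1 UMI. With WT cells weighted to the KO depths there were 161, with 40 lower. The lower genes numbered 43 by the mean of per-cell CPM, 55 without the 3% of cells with most UMIs and 140 without cells carrying 3 or more S and G2M genes, a broad filter that left 297 KO and 60 WT cells. Thinning with that filter, added after the data were seen, gave 474 (268 higher, 206 lower), and leaving out proliferating cells 178, with 35 lower. List medians past 1.5-fold numbered 5, but 2 by per-cell CPM, 8 at 100 CPM, 2 with all 4 genes, 0 thinned, 1 depth-weighted, 3 without cells with S and G2M genes, 0 with both filters and 2 without proliferating cells. Named genes past 1.5-fold numbered 74, and 48 thinned, among them 23 of the 45 higher and 18 of the 29 lower ones.

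Of genes past 1.5-fold between state and other cells in the KO library (159, with 136 higher and 23 lower), there were 293 (98 lower) at 20 CPM, 288 (108 lower) against cells with none of the 4 genes, and 67 lower without cells with S and G2M genes. In the WT library (92, with 74 higher and 18 lower) there were 178 (136 higher, 42 lower) at 20 CPM, 226 (152 higher, 74 lower) thinned, 152 (121 higher, 31 lower) against cells with none of the genes and 248 (142 higher, 106 lower) without cells with S and G2M genes. List medians past 1.5-fold there numbered 3, but 5 thinned and 5 against cells with none of the genes.

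Among named genes past 1.5-fold, signs of KO over WT turned inside the state for Dut (0.14 thinned, 0.83 thinned without cells with S and G2M genes), Hist1h2ap (0.050) and Stmn1 (0.21) under that thinned filter, S100a4 (0.62), Socs3 (-0.015), Stmn1 (0.49) and Tuba1b (0.14) without cells with S and G2M genes, and Top2a (0.18) and Tuba1b (0.072) without proliferating cells. For state over other cells they turned in KO for Hist1h2ap (-0.076 thinned, -0.19 without the cells with most UMIs), Gzmd (0.59 without cells with S and G2M genes, 0.61 without the cells with most UMIs), Gzmf (0.086 and 0.11) and Spp1 (0.29 without the cells with most UMIs). In WT, again among genes past 1.5-fold, they turned for Dut (-0.78), Stmn1 (-0.074), Ifitm1 (-0.33) and Spp1 (-1.03) thinned, for Ifitm1 (-0.55), Myc (-0.19), Spp1 (-0.77) and Tubb5 (-0.25) without cells with S and G2M genes, and for Ifitm1 (-1.28) and Spp1 (-0.71) without the cells with most UMIs. The cause was not tested. With 1 library per genotype, depth limits counting error but says nothing of the spread between mice.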
